A study of Mus musculus with 4 samples.

Results

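Alpha and mu glutathione transferases were measured in cultured mouse skin melanocytes from wild-type mice and from mice that lack AhR, the aryl hydrocarbon receptor. The group consists of 3 alpha genes (Gsta2, Gsta3 and Gsta4) and 6 mu genes (Gstm1, Gstm2, Gstm4, Gstm5, Gstm6 and Gstm7), 9 of the 12393 genes that the arrays measure with a probe set of a single gene symbol. Members were found by symbol, and a gene with several probe sets is given by the one with the highest mean signal over the 4 arrays. That choice of probe set uses the level and not the genotype. The family itself was selected on the higher signals of Gsta4 and Gsta2 in the knockout cells, which were already known, so their tests and the counts that include them are a description and no independent evidence about the family.

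Glutathione transferases join the tripeptide glutathione to reactive, fat-soluble compounds, which makes them easier to export and less able to damage protein and DNA. The cytosolic alpha and mu enzymes work as dimers and are best known from liver. Their genes can be induced by NRF2, a transcription factor that answers oxidative stress through antioxidant response elements, and some also by AhR through xenobiotic response elements. In pigment cells the chemistry of melanin makes quinones and peroxides. Quinones are substrates for this kind of conjugation.

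The cells came from tail epidermis of female mice and were cultured in a serum-free medium for melanocytes over 6 to 8 weeks. The wild-type group was C57BL/6, with 2 mice. The knockout group, also with 2 mice, was AhRtm1Bra, in which exon 2 of Ahr is deleted, and its background strain is not given in the sources used here. Each array holds the RNA of an individual mouse, after amplification, so n is 2 in both groups, and the age of the mice is not stated. The comparison asks which transcripts differ when the receptor is missing.

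Signals are linear MAS5 intensities, with array medians between 89.5 and 98.4. For Gapdh, the 3' control probe set read 11.9 times the 5' one in AhR knockout 2, against 1.98 to 2.85 times on the other arrays. Ahr itself, by its brighter probe set, stood at 825 and 874 in wild-type cells, and at 241 and 843 in AhR knockout 1 and 2. Its place relative to exon 2 was not analysed here, so it checks no label. Cyp1b1, a classical AhR target, read 14.0 and 23.1 in the knockout arrays and 1216 and 1410.0 in wild type. The melanocyte label was borne out by Dct, the pigment enzyme dopachrome tautomerase, which read between 16814 and 32201 on all arrays. Endothelial markers were present too, and over 12 genes they summed to 24996 and 26733 in wild-type cells against 16637 and 6740 without AhR. In such mixed cultures, fewer cells of a type and less RNA per cell cannot be told apart.

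Over the whole group, Gsta4 and Gsta2 rose in the knockout cells and no member fell. Of the 9 members, 8 were bright enough to be tested among 7436 genes, and Gstm6 was too dim. Differences are AhR knockout minus wild type on the scale of log2(signal + 16), with the standard error from limma and p-values adjusted over all tested genes by the Benjamini-Hochberg method. At an adjusted p under 0.05, 2 of the 8 tested members rose and 0 fell, where the share of all tested genes that rose was 0.202%, that fell 0.753%, and that did either 0.955%. At an unadjusted p under 0.05, 5 of the 8 were higher and 0 were lower in limma, where 7.68% of tested genes were higher and 12.9% lower. Both knockout arrays lay above both wild-type arrays in 5 of the 8, where 28.7% of tested genes did so, and below them in 0, where 26.7% did. With Gstm6 it was 6 of the 9, where 29.4% of all measured genes did so. In the same 5 members the difference was also at least 2-fold, which held for 4.38% of tested genes. The median difference was 1.15 over the tested members and 0.0055 over all tested genes.

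**Figure D1:**
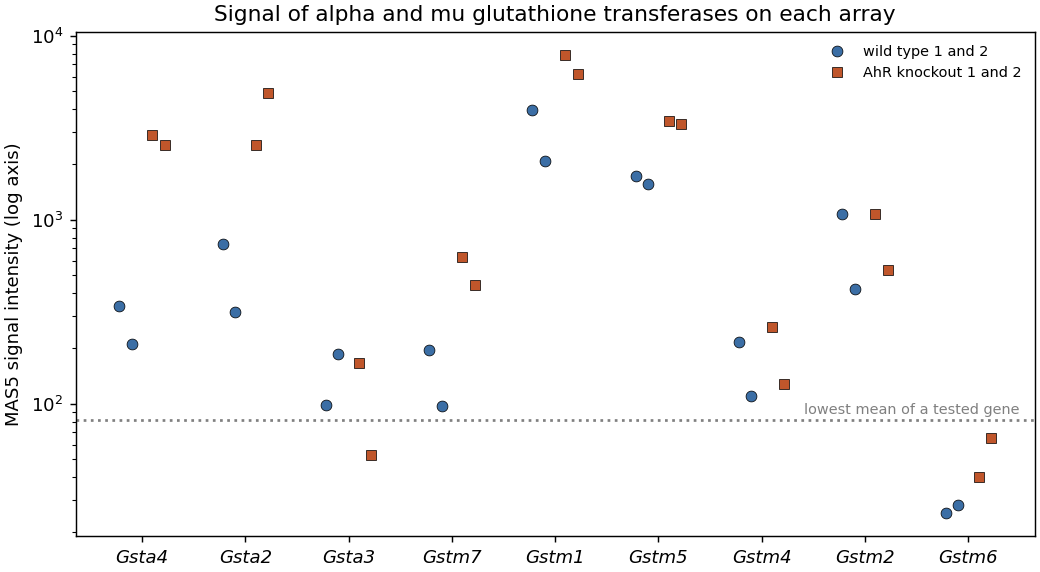
Signal of each member on each array, on a log axis, from its brightest probe set; circles are the 2 wild-type arrays and squares the 2 AhR knockout arrays, with replicate 1 to the left of replicate 2. The dotted line marks 81.1, the lowest mean signal of a tested gene. Gsta4 and Gsta2 show the widest gap between the groups, and the groups overlap for Gsta3, Gstm4 and Gstm2.

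Gsta4, the alpha enzyme that prefers reactive aldehydes from lipid peroxidation such as hydroxynonenal, had the largest difference of the group. It read 339 and 210.3 in wild-type cells against 2902 and 2561 without AhR (probe set 1416368_at). The groups were far apart, and as a ratio the knockout arrays differed by less (1.13 times) than the wild-type arrays (1.61 times). The log2 difference was 3.27 ± 0.39 (SE), or 9.67-fold on that scale, with adjusted p = 0.0208 in limma. Among the 7436 tested genes it ranked 1 from the highest difference. AhR knockout 1 alone gave a difference of 3.36, and AhR knockout 2 alone gave 3.18, so it was as large without AhR knockout 2, whose Gapdh ratio stood apart. Without the filter on dim genes the adjusted p was 0.187.

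Gsta2, an alpha enzyme known from liver for its induction by foreign compounds, rose as well. Its signals were 743 and 314 in wild-type cells against 2557 and 4859.9 without AhR (probe set 1421040_a_at). Wild type 1 was at 2.37 times wild type 2, and AhR knockout 1 at 0.526 times AhR knockout 2, yet both knockout arrays lay above both wild-type arrays. The log2 difference was 2.82 ± 0.49 (SE), with adjusted p = 0.0411 in limma, close to the threshold, and it ranked 5 among tested genes. Leaving out wild type 2 ended the call, with a difference of 2.22 and adjusted p = 0.0852. The call also ended with quantile normalization (adjusted p = 0.0525), with every probe set tested by itself (0.0714) and without the filter (0.192). A further probe set is annotated to Gsta2 together with Gsta1 and Gm3776. It read 1375 and 1045 in wild-type cells against 3438 and 4099.95 without AhR, a difference of 1.63. That signal cannot be assigned to any of the 3 genes, and shared binding of the Gsta2 probe set with its close relatives was not checked.

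Gsta3, the alpha enzyme known in the mouse for detoxifying aflatoxin, did not separate the groups. Its brighter probe set (1423436_at) read 98.7 and 187 in wild-type cells against 167 and 52.9 without AhR. AhR knockout 1 lay between the wild-type arrays, and AhR knockout 2 lay below both. The log2 difference was -0.44 ± 0.51 (SE), with adjusted p = 0.636 and a 95% interval from -1.59 to 0.70. For AhR knockout 2 alone it was -1.15 with adjusted p = 0.0469, and for AhR knockout 1 alone it was 0.26 with adjusted p = 0.733. The second Gsta3 probe set read 78.1 and 121 in wild-type cells against 112 and 155 without AhR, a difference of 0.38 in the opposite direction. These dim signals give no direction for Gsta3.

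The stretches before the transcription start of Gsta2 and Gsta3 are shown for the alpha genes, because of what is known of AhR and NRF2 at this family. Each is the 250 bases upstream of the annotated start, from RefSeq on GRCm38.p6, and Gsta4 has no entry in the table used. Capitals mark matches on either strand to the xenobiotic response element core GCGTG or the antioxidant response element core TGACNNNGC.
Gsta2, chr9:78347146-78347395, minus strand: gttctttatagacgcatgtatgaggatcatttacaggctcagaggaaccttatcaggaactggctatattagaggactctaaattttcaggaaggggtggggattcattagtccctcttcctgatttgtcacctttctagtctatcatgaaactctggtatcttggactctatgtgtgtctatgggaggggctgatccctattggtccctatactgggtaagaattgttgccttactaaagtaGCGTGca
Gsta3, chr1:21240335-21240584, plus strand: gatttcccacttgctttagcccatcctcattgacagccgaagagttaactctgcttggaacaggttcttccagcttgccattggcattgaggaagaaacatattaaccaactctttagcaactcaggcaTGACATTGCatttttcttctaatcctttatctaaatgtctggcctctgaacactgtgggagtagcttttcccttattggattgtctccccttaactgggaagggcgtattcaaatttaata
The Gsta2 stretch holds GCGTG once, starting 7 bases before the start site, and no TGACNNNGC. The Gsta3 stretch holds TGACNNNGC once, starting 121 bases before the start site, and no GCGTG. Of 32851 stretches of the same length in the table, 28.2% hold GCGTG and 10.2% hold TGACNNNGC, and a match describes letters only.

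**Figure D2:**
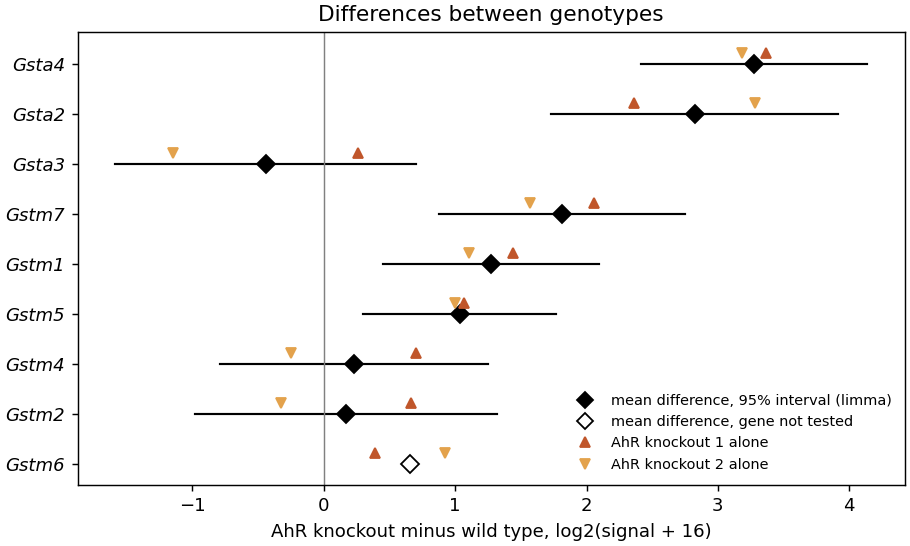
AhR knockout minus wild type on the log2(signal + 16) scale for each member. Filled diamonds are the means of 2 against 2 arrays with 95% intervals from limma, the open diamond is Gstm6, which was not tested, and triangles set each knockout array alone against the wild-type mean. The 2 knockout arrays lie on the same side of zero except for Gsta3, Gstm4 and Gstm2.

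All 5 tested mu genes had a higher mean in knockout, where the median difference over all tested genes was 0.0055. Both knockout arrays lay above both wild-type arrays in 3 of them, where 28.7% of tested genes did so. In limma 0 of the 5 passed over all genes, where 0.202% of tested genes rose. Gstm7 read 197 and 96.8 in wild-type cells against 629 and 444 without AhR (probe set 1419072_at). Both knockout arrays were higher than both wild-type arrays. The log2 difference was 1.82 ± 0.42 (SE), with adjusted p = 0.0694 in limma. A second, dimmer Gstm7 probe set read 35.9 and 53.9 in wild-type cells against 54.1 and 57.8 without AhR, a difference of 0.26, so the size for Gstm7 rests on the brighter one. Averaging both probe sets brought the difference to 1.04. Without wild type 2 the difference was 1.36, and the adjusted p was 0.769.

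Gstm1, the main mu enzyme of mouse liver, was higher in the knockout arrays with all of its probe sets. The brightest (1416416_x_at) read 3941 and 2097 in wild-type cells against 7849 and 6204 without AhR. Even the lower knockout array stood above the higher wild-type array. The log2 difference was 1.27 ± 0.37 (SE), with adjusted p = 0.109 and a 95% interval from 0.45 to 2.10. The other three Gstm1 probe sets gave differences of 1.26, 1.44 and 1.63, each with separated groups. Some of them have a name ending in x_at, which marks designs that can also bind related transcripts, and the mu genes are close relatives. Gstm1 without wild type 2 differed by 0.82.

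Gstm5, a mu enzyme, had the closest replicates of the group. It read 1729 and 1560.0 in wild-type cells against 3463 and 3299 without AhR (probe set 1416842_at). Signals within a genotype were almost the same, and those of the genotypes lay about 2-fold apart. The log2 difference was 1.03 ± 0.33 (SE), with adjusted p = 0.136 and a 95% interval from 0.30 to 1.77. The SE is larger than the gap between the Gstm5 replicates because limma draws it towards that of genes with similar signal. Gstm5 alone with AhR knockout 1 gave 1.07, and with AhR knockout 2 it gave 0.999.

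Gstm2 and Gstm4 did not separate the genotypes. Gstm2 read 1071 and 421 in wild-type cells against 1075 and 534 without AhR (probe set 1416411_at), a log2 difference of 0.17 ± 0.51 (SE) with a 95% interval from -0.98 to 1.32. Gstm4 read 216 and 110.1 in wild-type cells against 263 and 128 without AhR (probe set 1424835_at), a log2 difference of 0.23 ± 0.46 (SE) with a 95% interval from -0.79 to 1.25. In both genes the spread lay between animals. The adjusted p was 0.866 for Gstm2 and 0.795 for Gstm4 in limma, and the intervals still allow a change of 2-fold. Their sign turned when wild type 2 or AhR knockout 1 was left out.

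Gstm6 was dim, at 25.4 and 28.3 in wild-type cells against 40.2 and 65.1 without AhR (probe set 1422072_a_at). Both knockout signals were the higher ones, but the mean of 39.8 lay under that of any tested gene. Its difference of 0.66 was therefore given no call. Without the filter the limma fit gave Gstm6 an unadjusted p of 0.102. Gstm3, a mu gene outside the group, read 103 and 92.7 in wild-type cells against 131 and 255 without AhR with its brighter probe set, a difference of 0.81 ± 0.41 (SE) with adjusted p = 0.287.

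On the mouse chromosome the mu genes are neighbours in the order Gstm5, Gstm7, Gstm6, Gstm3, Gstm2, Gstm1, Gstm4, by the RefSeq table of GRCm38.p6. In that order the differences were 1.03, 1.82, 0.66, 0.81, 0.17, 1.27 and 0.23. Gstm1, with separated groups, lies between Gstm2 and Gstm4, whose groups overlap. Among the alpha genes, Gsta4, Gsta1 and Gsta2 lie in another cluster, and Gsta3 lies apart from both. Whether the differences of neighbouring genes differ from each other was not tested.

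Stretches of Gstm5, Gstm1 and Gstm2 show an example of each kind of mu gene, with close replicates, with several probe sets of like difference, and with overlapping groups. They are again the 250 bases upstream of the annotated start, from RefSeq on GRCm38.p6, with the same letters in capitals. Where several starts are annotated, the one nearest the 5' end of the gene was used.
Gstm5, chr3:107895604-107895853, plus strand: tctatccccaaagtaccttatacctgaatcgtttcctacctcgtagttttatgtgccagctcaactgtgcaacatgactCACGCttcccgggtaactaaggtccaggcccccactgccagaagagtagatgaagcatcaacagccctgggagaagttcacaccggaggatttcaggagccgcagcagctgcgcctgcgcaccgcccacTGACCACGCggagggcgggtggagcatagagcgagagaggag
Gstm1, chr3:108017974-108018223, minus strand: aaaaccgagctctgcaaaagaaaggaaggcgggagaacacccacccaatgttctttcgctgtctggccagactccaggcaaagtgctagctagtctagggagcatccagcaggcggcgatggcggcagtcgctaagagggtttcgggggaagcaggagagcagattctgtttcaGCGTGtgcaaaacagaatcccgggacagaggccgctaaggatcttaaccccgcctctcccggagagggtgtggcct
Gstm2, chr3:107986421-107986670, minus strand: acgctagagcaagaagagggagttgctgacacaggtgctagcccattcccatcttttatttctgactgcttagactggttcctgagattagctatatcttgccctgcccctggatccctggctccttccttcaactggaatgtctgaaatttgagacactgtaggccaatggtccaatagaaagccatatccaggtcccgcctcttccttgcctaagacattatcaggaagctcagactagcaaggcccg
Gstm5 holds GCGTG at 2 places, read on the opposite strand, and TGACNNNGC at 1, and the nearer GCGTG lies inside the TGACNNNGC match. Gstm1 holds GCGTG once, starting 76 bases before the start site. Gstm2 holds neither, and nor do Gstm4, Gstm6 and Gstm7. Of the 8 members with an entry, 3 hold GCGTG and 2 hold TGACNNNGC. Gstm7, with the largest mu difference, and Gstm2, with one of the smallest, are alike in holding neither.

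The members also varied between animals of the same genotype, and mostly in the same direction. Wild type 1 had at least 1.5 times the signal of wild type 2 in 6 of the 8 tested members, where 12.4% of tested genes did. Ratios of wild type 1 to wild type 2 were 2.54 for Gstm2, 2.37 for Gsta2, 2.03 for Gstm7, 1.96 for Gstm4, 1.88 for Gstm1 and 1.61 for Gsta4. Gstm5 was nearly level at 1.11, and Gsta3 went the other way at 0.527. The median of wild type 1 minus wild type 2 was 0.89 over the tested members and 0.067 over all tested genes. In AhR knockout cells the first animal was likewise above the second for Gstm2, at 2.01 times, and for Gstm4, at 2.05 times. For 6 of the 8 tested members the animal numbered 1 was higher in both genotypes, where 35% of tested genes showed this.

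**Figure D3:**
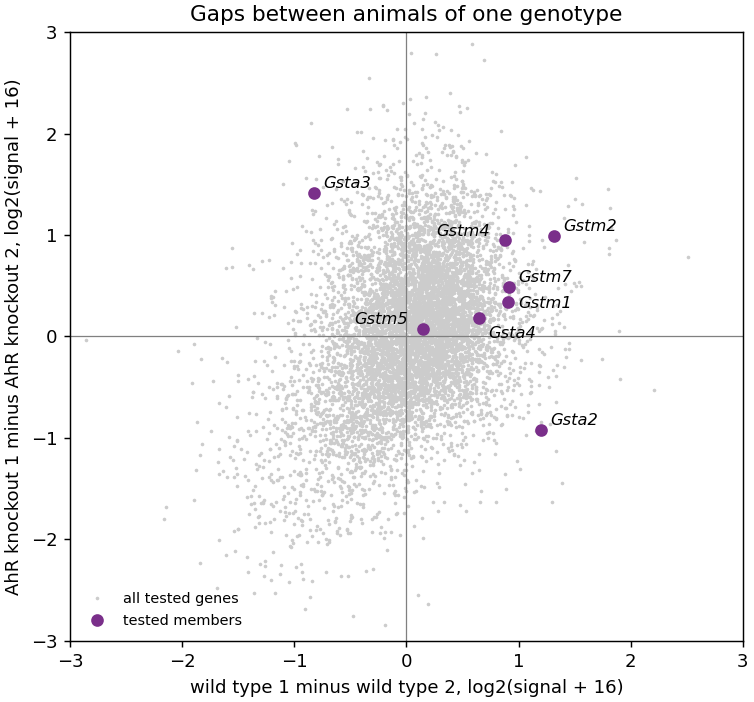
Gap between the 2 wild-type animals (horizontal) and between the 2 AhR knockout animals (vertical) on the log2(signal + 16) scale. Purple points are the 8 tested members and grey points all 7436 tested genes, of which 6 lie outside the axes. Of the members, 6 lie in the upper right, Gsta2 in the lower right and Gsta3 in the upper left.

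Markers of cell types also differed between animals and genotypes. Of 9 tested melanocyte markers, 5 had at least 1.5 times the signal in wild type 1 that they had in wild type 2, with a median gap of 0.59. Melanocyte markers summed to 71810 and 55760 in wild-type cells against 83785 and 108194 without AhR, with 7 of 9 higher in knockout and Kit and Mitf lower. In limma 0 of these passed, and an unadjusted p under 0.05 was seen for 3 higher and 1 lower. At that level 7.68% of all tested genes were higher and 12.9% lower. Tyr, the tyrosinase that starts melanin synthesis, differed by 1.197, and Sox10, a transcription factor of the lineage, by 1.54. Slc45a2, a melanosome transporter, differed by 1.52. Kit, the receptor for stem cell factor, read 1235 and 899.8 in wild-type cells against 558 and 273 without AhR, a difference of -1.39. Mitf, the main regulator of pigment genes, differed by -0.41. The melanocyte list thus held markers in both directions.

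Markers of other cell types differed as well. Of 12 tested endothelial markers 11 were lower in knockout, with a median difference of -1.58, or -0.80 with AhR knockout 1 alone and -2.13 with AhR knockout 2 alone. Sox17, an endothelial transcription factor, fell with adjusted p = 0.049 in limma. That call was lost, with 0 endothelial markers past the test, under quantile normalization, pseudocount 1, no filter, the top 40% of genes, the filter on the mean log2 value, the mean of probe sets, plain _at probe sets, every probe set by itself, and limma without trend or with robust eBayes. Fibroblast markers, with 4 tested, had a median of -0.92, or -0.54 and -1.30 with AhR knockout 1 or 2 alone. Of these, 1 had a higher mean in knockout and 3 a lower one. For them limma gave an unadjusted p under 0.05 to 2 lower and 0 higher, where 12.9% of all tested genes were lower and 7.68% higher. The fibroblast list had a summed signal of 2733 and 5139 in wild-type cells against 2639 and 1729 without AhR. Most of that sum was Thy1, which read 1886 and 4063 in wild-type cells against 2181 and 1363 without AhR, with overlapping groups. Dcn differed by 0.39 and Fbln2 by -1.16. Col3a1, a collagen chain, fell with adjusted p = 0.0409 in limma. The fibroblast call was lost without wild type 2 and under quantile normalization, no filter, the top 40% of genes, the mean of probe sets, plain _at probe sets and every probe set by itself.

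Keratinocyte markers summed to 592 and 507 in wild-type cells against 2040 and 475 without AhR, so their sum was high in AhR knockout 1 alone. Among the 5 tested genes this held for Krt5, Krt14 and Krt6a, and not for Krt10 and Dsp. Krt10 was lowest in AhR knockout 1, at 56.4, and highest in AhR knockout 2, at 157. Dsp was highest in wild type 1, at 367, against 279 and 130 in AhR knockout 1 and 2. As ratios of AhR knockout 1 to AhR knockout 2, Gsta4 stood at 1.13, Gstm1 at 1.27, Gstm5 at 1.05 and Gstm7 at 1.42. Gsta2, the remaining tested member with separated groups, stood at 0.526. Leukocyte markers summed to 1776 and 1724 in wild-type cells against 3965 and 3480.5 without AhR, with 3 of 4 tested higher. Lyz2, a lysozyme of macrophages, read 669 and 881 in wild-type cells against 2628 and 2776 without AhR, with adjusted p = 0.0541. C1qb, a complement chain made by macrophages, read 54.8 and 65.4 in wild-type cells against 146 and 134 without AhR, with adjusted p = 0.156. Csf1r, the macrophage growth factor receptor, differed by 0.56, and Cd68 by -0.71 with overlapping groups. Too dim to be tested were C1qc, at 1.86 and 5.05 in wild-type cells against 68.9 and 19.0 without AhR, and Adgre1, at 57.7 and 52.4 against 97.9 and 87.6. Ptprc, the general leukocyte marker, read at most 26.1 on any array and its groups overlapped. Cspg4, from the pericyte list, differed by 1.72 with adjusted p = 0.0569, and S100b, from the Schwann and glial list, by 1.84 with adjusted p = 0.0694. The part of these cell types in the transferase differences was not tested.

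Other classes of glutathione transferase were mostly higher as well, and whether they differ from the alpha and mu classes was not tested. Of 12 tested, 10 were higher and 2 lower in knockout, with a median of 0.39 and a range from -0.59 to 1.13. The median was 0.65 with AhR knockout 1 alone and 0.12 with AhR knockout 2 alone. In limma 0 of them passed, and limma gave an unadjusted p under 0.05 to 1 higher and 0 lower. At that level 7.68% of all tested genes were higher and 12.9% lower. Mgst2, a microsomal transferase, read 73.5 and 87.2 in wild-type cells against 235 and 160.0 without AhR, a difference of 1.13 with adjusted p = 0.144. Gstp1, the pi enzyme and the class best known in skin, read 20179 and 18839 in wild-type cells against 21101 and 31816 without AhR, a difference of 0.41. Both knockout arrays were above wild type there, though AhR knockout 1 only slightly. Gstt1, a theta enzyme, differed by 0.89 with adjusted p = 0.338, and the groups overlapped. Mgst3, a microsomal transferase, differed by 0.54 with adjusted p = 0.438.

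Genes that make and recycle glutathione mostly had a lower signal in knockout. Of 13 tested, 11 had a lower mean in knockout and 2 a higher one, with a median of -0.34. In all 0 passed, and limma gave an unadjusted p under 0.05 to 1 higher and 0 lower. At that level 7.68% of all tested genes were higher and 12.9% lower. Gsr, which regenerates glutathione from its oxidised form, read 926 and 1289 in wild-type cells against 839 and 359 without AhR, a difference of -0.97 with adjusted p = 0.263. The low value in AhR knockout 2 made up most of that. Slc7a11, the cystine carrier that feeds glutathione synthesis, differed by -0.62, and Lap3, a peptidase, by -0.87. Slc3a2, the partner chain of Slc7a11 and of other amino acid carriers, differed by 0.87 with adjusted p = 0.215. Against the wild-type mean, this list had a median of -0.067 with AhR knockout 1 alone and -0.76 with AhR knockout 2 alone.

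Known NRF2 targets outside the transferase family did not share one direction. Of 22 tested, 8 had a higher mean in knockout and 14 a lower one, with a median of -0.27. Its sign turned with the array, at 0.052 for AhR knockout 1 alone and -0.46 for AhR knockout 2, the array with the high Gapdh ratio. Again 0 passed in limma, and limma gave an unadjusted p under 0.05 to 4 higher and 2 lower. At that level 7.68% of all tested genes were higher and 12.9% lower. Me1, malic enzyme, read 1250.3 and 1451 in wild-type cells against 529 and 533 without AhR, a difference of -1.32 with adjusted p = 0.098. Txnrd1, thioredoxin reductase, differed by -1.13 with adjusted p = 0.174. Aox1, an aldehyde oxidase, read 444 and 325 in wild-type cells against 713 and 917 without AhR, a difference of 1.06 with adjusted p = 0.163, and Tkt, transketolase, differed by 0.71. Of 9 tested genes for NRF2 and its regulators, 2 were higher and 7 lower, with a median of -0.54 and 0 past the test, and limma gave an unadjusted p under 0.05 to 2 lower and 0 higher. This median too was 0.019 with AhR knockout 1 alone and -0.57 with AhR knockout 2 alone. Nfe2l2, which encodes NRF2, read 2167 and 3051 in wild-type cells against 1644 and 1841 without AhR, a difference of -0.56 with adjusted p = 0.388. Keap1, its inhibitor, differed by 0.57, Bach1, a repressor at the same elements, by -0.96, and Cul3, the ligase scaffold that works with Keap1, by -1.44. None of these passed.

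**Figure D4:**
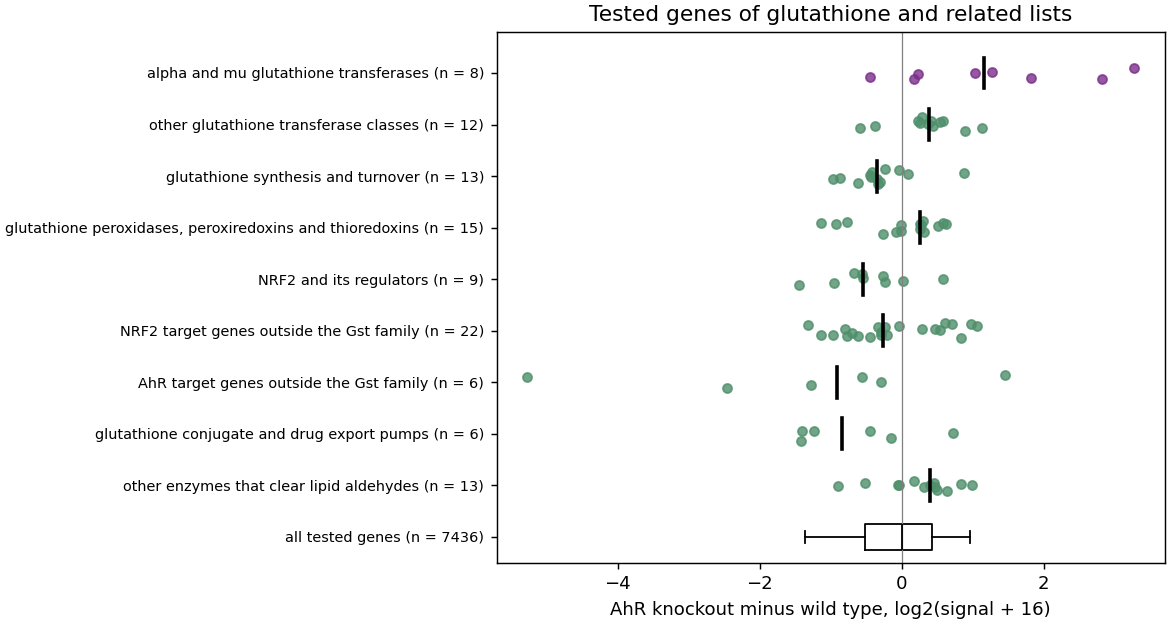
AhR knockout minus wild type on the log2(signal + 16) scale for the tested genes of each list, a point per gene and a bar at the median; some genes are in more than one list. The box for all 7436 tested genes spans the quartiles, with whiskers from percentile 5 to percentile 95. The alpha and mu genes have a median of 1.15 and the NRF2 targets outside the family one of -0.27, which is 0.052 with AhR knockout 1 alone.

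AhR targets outside the family mostly had lower signal, while Gsta4 and Gsta2 were higher. Of 6 tested, 5 had a lower mean in knockout and 1 a higher one, with a median of -0.92. Cyp1b1 and Ahrr fell, where 0.753% of all tested genes did. Cyp1a1, Cyp1a2 and Aldh3a1 were too dim to be tested and their groups overlapped, and Ugt1a6a was not measured. The number that fell was 1 without the filter. It was also 1 with the top 40% of genes, where Ahrr was too dim to be tested. Ahrr, the AhR repressor, read 202 and 242 in wild-type cells against 30.8 and 23.3 without AhR, a difference of -2.47 with adjusted p = 0.0221. Nqo1, a quinone reductase induced by both AhR and NRF2, read 1252 and 1834 in wild-type cells against 1390.2 and 1086 without AhR, a difference of -0.30 with adjusted p = 0.667. The groups overlapped for Nqo1. Tiparp, a target that feeds back on AhR, differed by -1.27, and Selenbp1 by 1.45, both short of the threshold.

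Pumps that export conjugates and drugs were mostly lower, and enzymes that clear lipid aldehydes mostly higher. Of 6 tested pumps 5 were lower, with a median of -0.84. Of these 0 passed, and limma gave an unadjusted p under 0.05 to 3 lower and 0 higher. At that level 12.9% of all tested genes were lower and 7.68% higher. Abcg2, a drug exporter, read 1392 and 2294 in wild-type cells against 1001 and 437 without AhR, a difference of -1.41 with adjusted p = 0.144. Abcb1a and Abcb1b, both P-glycoproteins that are also made by blood vessel cells, differed by -1.42 and -1.23. Abcc5, an organic anion exporter, differed by 0.72. Of 13 tested aldehyde enzymes, 9 were higher and 4 lower, with a median of 0.40 and 0 past the test, and limma gave an unadjusted p under 0.05 to 2 higher and 1 lower. Aldh9a1 differed by 0.99 and Aldh2, the mitochondrial aldehyde dehydrogenase, by 0.83, with adjusted p = 0.138 and 0.219. Akr1a1, an aldehyde reductase, differed by 0.50 and Adh7, an alcohol dehydrogenase, by -0.89. Peroxidases, peroxiredoxins and thioredoxins were split, with 8 higher and 7 lower of 15 and a median of 0.25, which was 0.35 with AhR knockout 1 alone and -0.12 with AhR knockout 2 alone. Of these 0 passed, and limma gave an unadjusted p under 0.05 to 0 higher and 2 lower. In that list Gpx4, which removes lipid peroxides, differed by 0.50 and Gpx8, a peroxidase of the endoplasmic reticulum, by -0.93. Srxn1, sulfiredoxin, differed by -0.77.

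Genes with the array pattern closest to Gsta4 were Scara5, Kcnn4, Cdh1, Agt and Ttr. Closeness was the Euclidean distance between log2(signal + 16) profiles over the 4 arrays, each centred on its mean, and it ran from 0.408 for Scara5 to 0.914 for Ttr, where the median over tested genes was 3.34. Scara5, a ferritin receptor, read 26.2 and 4.08 in wild-type cells against 249 and 193 without AhR. Cdh1, E-cadherin, read 89.1 and 23.3 in wild-type cells against 549 and 636 without AhR. For Gstm1, the mu gene with the highest mean signal, the closest were Ebp, Vamp8, Ubl7, Zfp524 and Abhd14b, at distances from 0.134 to 0.195 against a median of 1.51. Ebp, a sterol isomerase, read 2321 and 1228 in wild-type cells against 4248 and 3304 without AhR, the same order of arrays as Gstm1. Gsta4 was selected for its rise and had the largest difference of all tested genes. Genes close to it therefore had to be other strong risers, and its median distance had to be large. With 4 arrays such likeness is a description only.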

How the data were processed

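RNA from 4 melanocyte cultures was read on single-colour arrays after amplification and biotin labelling, as the labels' protocols state. The authors deposited signal intensity on a linear scale, computed by MAS5 (no version named) according to the submitters' processing notes. The mean of the middle 96% of the 22690 probe sets lay between 500.2 and 500.3 on every array, a scaling that would divide out a change of most transcripts. No detection calls were used.

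Of the probe sets, 20380 had 1 gene symbol in the platform annotation, 691 several, 1555 none and 64 were controls. Symbols were updated by gene identifier for 20351. The members have 14 probe sets of their own, and 1 further is shared with Gsta1 and Gm3776. Genes in the top 60% by mean linear signal were tested, 7436 in all, on log2(signal + 16), which understates folds of dim genes. Groups, taken from the titles, were compared with limma 3.58.1 (lmFit, eBayes with trend) in R 4.3.3. With 2 arrays against 2, the smallest p of an exact two-sided permutation test is 0.333. The number of arrays limits the precision.

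Every member is named, and from each other list the genes past the threshold. Up to 4 more per list, in order of smallest p, were chosen for naming, and some of these are not shown. Dct, Mitf, Ptprc, C1qc, Adgre1 and Krt10 were named after their values were seen. The members, lists and alternatives were chosen with earlier results of these data known. Lists are described by counts and medians, with no set test. Further counts of higher genes were 2 of 4 tested for pericyte and smooth muscle and 2 of 4 for Schwann and glial markers. For adipocyte and sebaceous markers it was 1 of 3. In limma 0 passed, and an unadjusted p under 0.05 was seen for 1, 1 and 0 higher and 0, 1 and 1 lower. At that level in limma, endothelial markers had 0 higher and 7 lower, leukocyte markers 2 and 0, and AhR targets 1 and 3. Of all tested genes 7.68% were higher and 12.9% lower at the same level. The method was tested on simulated data for these 7436 genes, 200 of them changed, in 20 runs. It found 19.1% of the 2-fold and 93.1% of the 4-fold changes, while false calls made up 6.73%. Simulated noise was normal and independent. Its size for each gene was the estimate that limma had already drawn towards that of similar genes. The shares found therefore hold for that setting and may be too high for the real arrays. Figures used matplotlib 3.10.9 in Python 3.11.15.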

Additional observations from a re-analysis of the deposited data

How the results depend on the processing

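Gsta4, Gsta2, Gstm1, Gstm5 and Gstm7 were higher in knockout under every alternative run on them. The ranges were 2.95 to 3.60 for Gsta4, 2.22 to 3.42 for Gsta2, 0.82 to 1.73 for Gstm1, 0.96 to 1.12 for Gstm5 and 1.04 to 2.27 for Gstm7. Gsta4 was called in 16 of 17 alternatives and Gsta2 in 12 of 16. The number of members that rose, 2 as reported, was 1 with quantile normalization, with probe sets ending in plain _at (where Gsta2 has none) and with every probe set by itself, and 0 without the filter. Leaving out an array each time gave 1 to 5 members that rose and 0 to 1 that fell, with the remaining lone array assumed to vary like the other group. The number of calls over all tested genes also varied widely between these fits, so the member counts cannot be compared between them. Without wild type 2, Gstm2 differed by -0.49 and Gstm4 by -0.21. Without AhR knockout 1 they differed by -0.33 and -0.25, and Gsta3 without AhR knockout 2 differed by 0.26. Over the 4 fits that leave out an array, Gsta3 lay between -1.15 and 0.26, Gstm2 between -0.49 and 0.83, and Gstm4 between -0.25 and 0.70.

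Among all tested genes, 15 rose and 56 fell. The numbers were 7 and 25 with quantile normalization, 9 and 34 with pseudocount 1, 0 and 1 without the filter, 5 and 15 with the top 40% of genes, 9 and 31 with the mean of probe sets, 4 and 9 with plain _at probe sets, and 7 and 23 with every probe set. With equal array medians 25 rose and 48 fell. Leaving out an array each time gave 4 to 532 that rose and 16 to 828 that fell. A filter on the mean log2 value, added after the data were seen, gave 10 and 41, with 2 members that rose. Equal medians moved the median of all tested genes to 0.094 and quantile normalization to 0.066.

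With the animal number as a replicate block, 440 genes rose and 966 fell, and 5 members rose, with adjusted p = 0.0024 for Gstm1, 0.023 for Gstm5 and 6.487e-06 for Gstm7. The gap between wild types correlated with that between knockouts at r = 0.353 across tested genes, which are not independent. No label says that equal numbers share a litter, batch or day, so the pairing is unknown. The causes were not tested.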
